A study of Sus scrofa with 4 samples.

Results

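The collagen genes of the pig genome were examined in 4 ATAC-seq libraries of porcine fetal fibroblasts, an assay in which open chromatin is fragmented by the enzyme Tn5. Members were all protein-coding genes of the RefSeq table for Sscrofa11.1 whose symbol is COL, digits, A and digits, which gave 43 of 20663 genes. Of these, 42 lay on chromosomes 1 to 18, X or Y and were analysed, among 19550 protein-coding genes placed there. COL6A2 is listed on an unnamed unplaced sequence and was not analysed here, nor was COL6A1, for which the table has no entry. The libraries BRG1 1 and BRG1 4 came from skin fibroblasts that over-expressed BRG1, the chromatin-remodelling ATPase encoded by SMARCA4, and are labelled pTK-642-BRG1. The libraries control 1 and control 4 came from wild-type skin fibroblasts labelled pTK-642, and the cells of all 4 libraries were serum-starved. The sources used here do not name the promoter that drives BRG1 or the cultures behind each library. Each p-value thus covers the spread among these 4 libraries, and that spread may be technical.

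Collagens are secreted or membrane-bound proteins whose chains wind around each other into a helix. Fibril-forming collagens (types I, II, III, V, XI, XXIV and XXVII) give tissues tensile strength, and dermal fibroblasts are a main source of types I, III and V. Type IV collagen forms the network of basement membranes, and its genes lie in head-to-head pairs. Other classes coat fibrils, build beaded filaments or anchoring fibrils, or span the cell membrane. BRG1 is a subunit of BAF complexes, which move nucleosomes and alter the access of other proteins to DNA.

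The 4 peak lists held 96367 peaks in BRG1 1 and 90851 in BRG1 4, against 107475 in control 1 and 105954 in control 4. Median peak width was 404 bp in BRG1 1 and 541 bp in BRG1 4, against 403 bp in control 1 and 396 bp in control 4, so BRG1 4 stood apart by wider peaks. Relative depth, read from the background that the lists imply, was 81.2% of control 1 in BRG1 1, 92.6% in BRG1 4 and 93.5% in control 4. This is an indirect estimate, since the caller's settings behind that background are not given. Read totals were not used here, so counting intervals are left out because depth is unknown in absolute terms. The label of fibroblasts was checked by gene-end peaks, meaning peaks within 1 kb of either end of a gene model. All 4 libraries had one at 10 of 12 fibroblast markers, with DCN having none and FN1 having one in 1 library. The same held for 3 of 8 chondrocyte, 2 of 7 keratinocyte, 3 of 8 endothelial, 3 of 7 muscle and 3 of 7 immune cell markers. Over all protein-coding genes the share was 68.2%, so gene-end peaks mark many genes and bear only weakly on the label. In bulk cells, a region open in fewer cells and one less open in each cell cannot be told apart.

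Each collagen gene was given a window of its gene model and 10 kb on both sides. Peaks of the 4 libraries that overlapped by at least 1 bp were merged into union regions, of which 498 lay in collagen windows and 121788 in the whole genome. All 4 libraries called 306 of the 498 collagen regions, or 61.4%, against 61.8% of all regions, so the share was near that of the genome. Most collagen regions lay inside the genes: 380 (76.3%) were in gene bodies, 50 within 1 kb of a collagen gene end and 68 (13.7%) in the flanks. The share called in all 4 libraries was 72.0% at gene ends, 60.5% in gene bodies and 58.8% in flanks. Strength is given as a percentile, the rank of a peak's −log10 p among the peaks of its own library, with 100 the strongest. Ranks come from lists of different length, so they describe each library and are no measure of change. The 306 shared regions had a median mean percentile of 55.3. Only 11 of the 306 lay within 1 kb of an end of another protein-coding gene.

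No collagen window was without a peak, against 8.75% of all 19550 genes. Collagen genes were long, with a median of 140 kb against 20.7 kb for all protein-coding genes, and long windows can hold more peaks. Per 100 kb of window, the median number of regions called in all 4 libraries was 5.56 for collagen genes and 4.99 for all genes. Across the 42 genes this number of regions correlated with window length at a Pearson r of 0.381 and a Spearman rho of 0.399, a description over genes that share the same libraries. Gene-end peaks in all 4 libraries were found at 29 of 42 collagen genes (69.0%), against 68.2% of all genes. The count takes in COL11A2, where BRG1 1 had one only at the higher-coordinate end and BRG1 4 only at the lower-coordinate end. In no library was there a gene-end peak at 9 of 42 (21.4%), against 25.8% of all genes. No collagen gene had a gene-end peak in both BRG1 libraries and in neither control (0 of 42, against 0.199% of all genes). Both ends were called in all 4 libraries at 6 of 42 (14.3%, against 8.89% of all genes) and exactly 1 end at 22 of 42 (52.4%, against 59.2%).

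**Figure D1:**
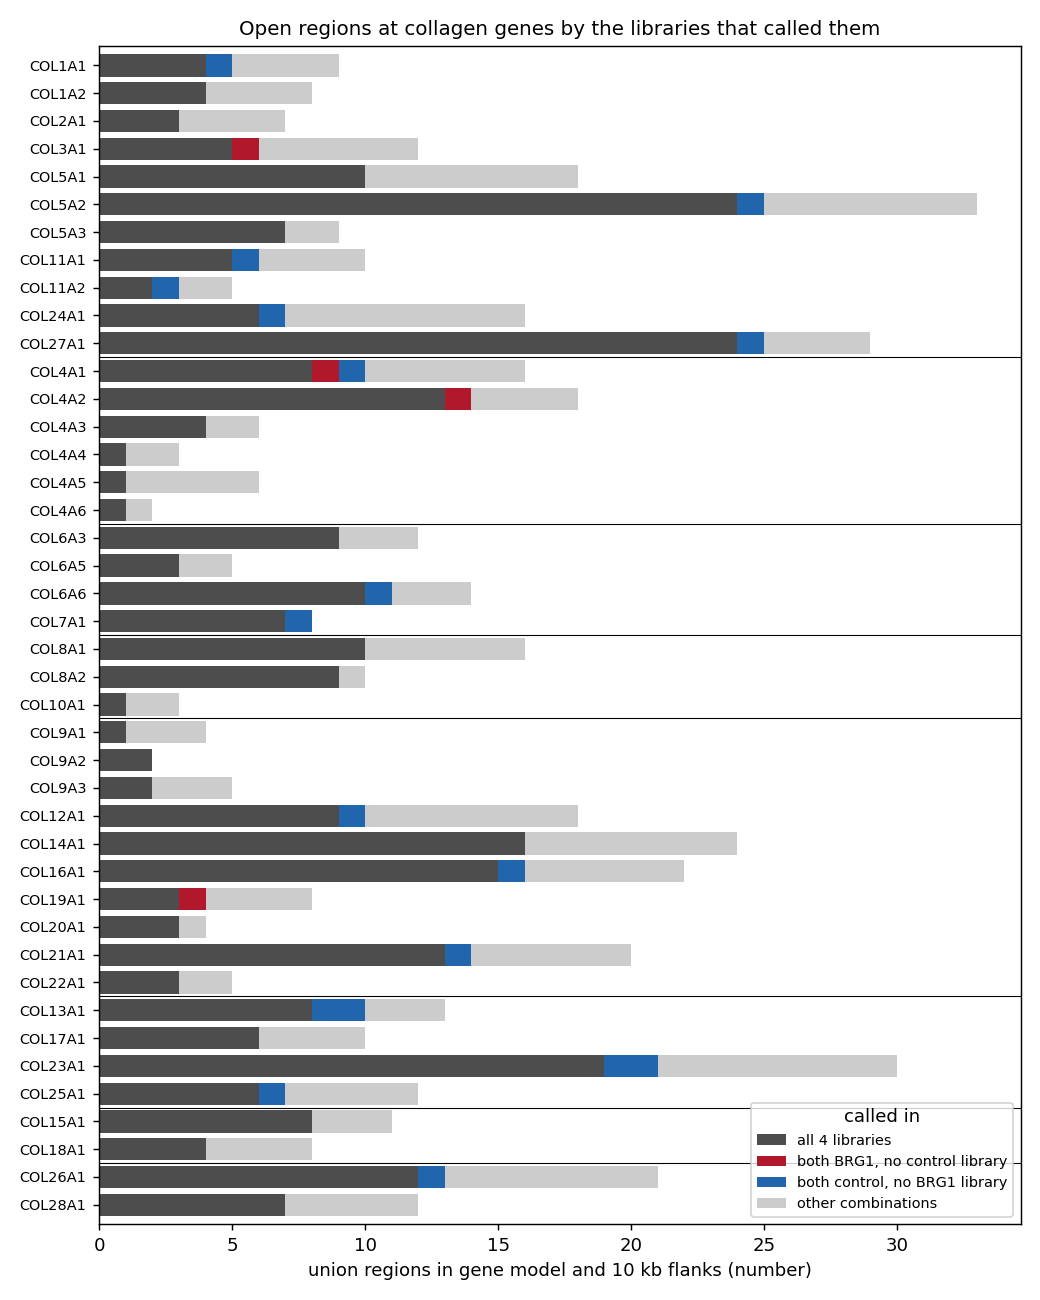
Number of union regions in each collagen window (horizontal axis), one bar per gene, grouped by class from fibrillar at the top through basement membrane, beaded filament and anchoring, short-chain network, fibril-associated, transmembrane and multiplexin to other collagens. Dark grey marks regions called in all 4 libraries, red those called in both BRG1 and no control library, blue the reverse and light grey other combinations. COL5A2 and COL27A1 have 24 dark grey regions each, while COL4A4, COL4A5, COL4A6, COL9A1 and COL10A1 have 1.

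The 6 genes of collagen types I, III and V, COL1A1, COL1A2, COL3A1, COL5A1, COL5A2 and COL5A3, each had a gene-end region called in all 4 libraries. Over all protein-coding genes, 68.2% had gene-end peaks in all 4 libraries. COL1A1, which encodes the major chain of type I collagen (chromosome 12, 26379087 to 26397180), had a region of 1791 bp across its higher-coordinate end, from 26395507 to 26397297. Its percentile was 89.4 in BRG1 1 and 90.1 in BRG1 4, against 90.7 in control 1 and 88.2 in control 4, so the groups overlapped. The authors' fold, the summit pileup over the background of the same library, was 7.18 and 6.10 in the BRG1 libraries and 7.21 and 6.78 in the control libraries. COL1A1 held 6 peaks in BRG1 1 and 5 in BRG1 4, against 10 in control 1 and 8 in control 4. Both BRG1 numbers lay below both control numbers, as at 15% of all genes. The groups did overlap in the length under peaks, which was 4159 and 4505 bp in BRG1 libraries against 4255 and 4162 bp in control libraries. A further region in its flank, centred 9750 bp from the higher-coordinate end, had percentiles of 95.4 and 88.2 in BRG1 against 95.1 and 96.0 in control libraries.

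COL1A2, the second chain of type I collagen (chromosome 9, 74174484 to 74210407), had its broadest region of 2034 bp at the lower-coordinate end, from 74173872 to 74175905. The percentile there was 88.2 in BRG1 1 and 91.5 in BRG1 4, against 93.8 in control 1 and 91.3 in control 4. BRG1 1 was the lowest of the 4 and control 1 the highest. In all, 4 of its 8 regions were called in every library, and none was called in both libraries of 1 group and neither of the other group. Peak numbers were 5 in BRG1 1 and 6 in BRG1 4, against 5 in control 1 and 7 in control 4.

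COL3A1, which encodes type III collagen (chromosome 15, 93556914 to 93595678), had a weaker gene-end region than the type I genes. Its percentile was 62.0 in BRG1 1 and 54.5 in BRG1 4, against 50.4 in control 1 and 57.5 in control 4. This gene carried 1 of the 3 BRG1-only regions, those called in both BRG1 libraries and in neither control, in its body from 93580522 to 93580945. That region was weak, with percentiles of 13.4 in BRG1 1 and 12.5 in BRG1 4, and lay 10297 bp from the closest region that all 4 libraries shared. Length under peaks in the window was 4498 bp in each BRG1 library, against 3188 bp in control 1 and 3719 bp in control 4, so both BRG1 values were higher. Peak numbers overlapped, at 9 and 8 in BRG1 and 8 and 9 in control libraries.

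Type V collagen takes part in setting the diameter of type I fibrils. COL5A2 (chromosome 15, 93611856 to 93981131) had 33 regions, of which 24 were called in all 4 libraries. Its strongest region, from 93980635 to 93981611, had percentiles of 97.2 and 98.8 in BRG1 against 97.7 and 97.3 in control libraries. An end of WDR75 is also within 1 kb of it, so it cannot be assigned to either gene. COL5A2 held 29 and 25 peaks in BRG1 against 32 and 31 in control libraries, without overlap and lower in BRG1, as at 15% of all genes. Its length under peaks was 14492 and 16209 bp in BRG1 against 14976 and 14841 bp in control libraries. COL5A1 (chromosome 1, 273934219 to 274083264) had 10 of 18 regions in all 4 libraries. Its gene-end region had a percentile of 88.0 in BRG1 1 and 67.5 in BRG1 4, against 85.5 in control 1 and 88.7 in control 4, the low value being that of BRG1 4 alone. A region in the body of COL5A1, from 273936206 to 273937096, ranked higher, at 93.9 and 98.0 in BRG1 against 92.5 and 92.6 in control libraries. COL5A3 had 7 of 9 regions in all 4 libraries and 11.3 such regions per 100 kb. A region between COL3A1 and COL5A2, within 10 kb of both models, was called in every library at percentiles of 84.4 and 89.4 in BRG1 against 81.0 and 85.7 in control libraries.

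COL27A1, a minor fibrillar collagen of cartilage and other tissues (chromosome 1, 254768576 to 254924893), was the densest of the fibrillar genes, with 24 of 29 regions in all 4 libraries and 13.6 per 100 kb. Its strongest region lay in the body, from 254888761 to 254889459, at percentiles of 95.6 and 94.5 in BRG1 against 96.4 and 96.2 in control libraries. COL27A1 was also the 1 collagen gene of 42 (2.38%) with a gene-end peak in both control libraries and in neither BRG1 library, against 0.532% of all genes. These were different weak peaks in the 2 controls, at percentile 20.4 in control 1 and 33.6 in control 4, and not a shared region. A control-only region, called in both control libraries and in neither BRG1 library, lay nearby from 254766083 to 254766371, centred 2349 bp below the model, at percentiles of 44.6 in control 1 and 51.3 in control 4. That was the highest rank of any group-only region in collagen windows. Within 3 kb of its ends COL27A1 had a peak in all 4 libraries. Peak numbers were 26 and 24 in BRG1 against 30 and 28 in control libraries.

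**Figure D2:**
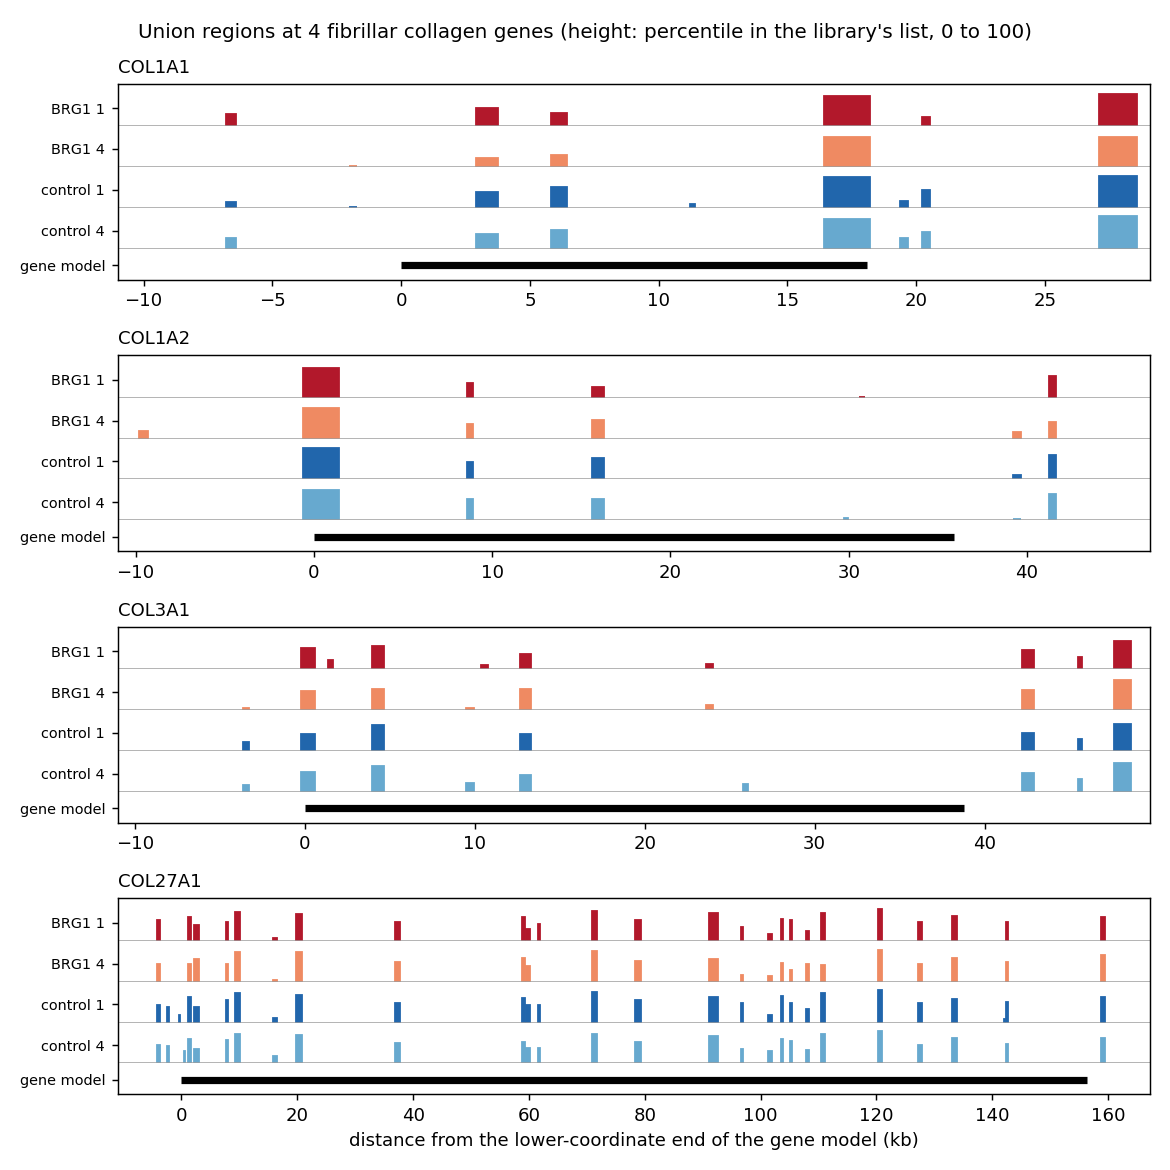
Union regions at COL1A1, COL1A2, COL3A1 and COL27A1, with distance from the lower-coordinate end of the gene model in kb (horizontal axis) and a row for each library. A box spans the union region, is drawn only where that library called it, and its height is the percentile in that library's list. The tall boxes recur in all 4 rows, while regions called in 1 group alone are lower, with percentiles of 13.4 and 12.5 in the BRG1 libraries in the body of COL3A1 and of 44.6 and 51.3 in the control libraries below COL27A1.

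COL2A1, the fibrillar collagen of cartilage (chromosome 5, 78350131 to 78380893), had a gene-end region called in all 4 libraries at percentiles of 46.3 and 57.7 in BRG1 against 44.9 and 42.9 in control libraries. In its window, 3 of 7 regions were called in all 4 libraries. Peak numbers there were 7 and 4 in BRG1 against 5 and 7 in control libraries. COL11A1 had gene-end percentiles of 69.9 and 75.9 in BRG1 against 70.1 and 73.2 in control libraries, and 6 and 6 peaks against 9 and 7. COL11A2, which lies beside RXRB on chromosome 7, held the highest-ranked region of all collagen windows, at percentiles of 99.2 and 99.6 in BRG1 against 99.1 and 99.3 in control libraries. That region was centred 7988 bp outside the model and within 1 kb of ends of RXRB and SLC39A7, so it cannot be assigned to COL11A2. The region at the lower-coordinate end of COL11A2 itself had percentiles of 63.5 and 68.5 in BRG1 against 67.7 and 70.2 in control libraries, although the peak of BRG1 1 in it lay over 1 kb from the end. At COL24A1 no library called a gene-end peak, and 6 of 16 regions in its window of 351 kb were called in all 4.

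COL10A1, a marker of hypertrophic chondrocytes (chromosome 1, 81766829 to 81773818), lacked a gene-end peak in every library. A region inside the gene, centred 1967 bp from an end, was called in all 4, at percentiles of 73.2 and 75.9 in BRG1 against 76.4 and 79.0 in control libraries. It also lies inside the model of NT5DC1, which spans all 3 regions of the window, so it cannot be assigned to either gene. COL9A2, which also lacked a gene-end peak, had a body region centred 1801 bp from an end, at 85.5 and 88.4 in BRG1 against 85.5 and 88.2 in control libraries. COL9A1 had 1 region in all 4 libraries, at percentiles of 68.8 in BRG1 1 and 28.3 in BRG1 4, against 63.2 in control 1 and 76.4 in control 4, with BRG1 4 the low value. COL9A1 and COL19A1 were the 2 collagen genes of 42 (4.76%) with both BRG1 peak numbers above both control numbers, against 1.24% of all genes, whose windows were shorter. COL9A1 had 3 and 2 peaks in BRG1 against 1 and 1 in control libraries, and its additional BRG1 peaks were each called in 1 library only.

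Among basement membrane collagens, the pair COL4A1 and COL4A2, found in nearly all basement membranes, had 8 of 16 and 13 of 18 regions called in every library. The models of the pair overlap on chromosome 11, and 1 region of 2242 bp, from 76996356 to 76998597, lay across both ends. Its percentile was 49.4 in BRG1 1 and 56.6 in BRG1 4, against 42.7 in control 1 and 49.6 in control 4. The strongest region of the pair lay in the body of COL4A2, from 77073990 to 77075048, at percentiles of 95.1 and 97.8 in BRG1 against 96.5 and 95.3 in control libraries. Peak numbers overlapped between groups in both genes, at 13 and 11 in BRG1 against 12 and 15 in control libraries for COL4A1, and 16 and 17 against 15 and 16 for COL4A2.

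The other pairs of type IV genes encode chains of specialised basement membranes such as that of the kidney glomerulus. COL4A3 and COL4A4 also share an overlap of their models, on chromosome 15, and the region there was weak. Its percentile was 0.540 in BRG1 1, 18.1 in control 1 and 6.08 in control 4, and it was not called in BRG1 4. COL4A5, on chromosome X, had a gene-end region in all 4 libraries. Its percentile was 37.4 and 34.0 in BRG1 against 25.6 and 9.88 in control libraries. COL4A6 lacked a gene-end peak throughout, although all 4 libraries had a peak within 3 kb of an end. Its model ended at 88750938 and that of COL4A5 began at 88958837, so these models did not meet. COL4A3 had 4 regions in all 4 libraries, and COL4A4, COL4A5 and COL4A6 had 1 each. Per 100 kb, COL4A5 (0.409), COL4A4 (0.625) and COL4A6 (0.735) were the lowest of the 42 genes, followed by COL19A1 (0.794) and COL9A1 (0.870). COL4A1 had 5.03 and COL4A2 had 7.04. The order of the lowest genes rests on few regions: the 1 region of COL4A5 became 3 without BRG1 1 and 0 with lists of equal length, and that of COL4A4 became 2 without BRG1 4.

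Collagens of beaded filaments and of the junction of dermis and epidermis were examined next. COL6A3, a chain of type VI collagen (chromosome 15, 137011549 to 137103687), had 9 of 12 regions in all 4 libraries. Its gene-end region, from 137102371 to 137103820, had percentiles of 76.6 and 72.4 in BRG1 against 77.0 and 79.3 in control libraries. COL6A5 and COL6A6 lacked a gene-end peak throughout, although 3 of 5 and 10 of 14 regions in their windows were called in all 4. The 3 of COL6A5 all lay in its flanks, and none lay in the gene model. COL7A1, which forms anchoring fibrils, had 7 of 8 regions in all 4 libraries and 13.4 per 100 kb, in a window that also reaches the genes PFKFB4 and UCN2. At its lower-coordinate end, which lay within 1 kb of an end of UCN2, the percentile was 73.9 in BRG1 1 and 45.6 in BRG1 4, against 66.0 in control 1 and 80.0 in control 4. At the other end it was 49.2 and 57.9 in BRG1 against 38.1 and 39.2 in control libraries. COL17A1, a transmembrane collagen of keratinocyte hemidesmosomes, was called at both ends in all 4 libraries. Its lower-coordinate end had percentiles of 65.2 and 62.3 in BRG1 against 62.4 and 61.0 in control libraries, while the other end stood at 48.3 and 14.4 in BRG1 against 51.5 and 61.4 in control libraries. Of 7 keratinocyte markers, 5 lacked a gene-end peak in every library, namely KRT5, KRT15, TP63, CDH1 and DSG3, against 25.8% of all genes. PKP1 and GRHL1 had one in all 4 libraries. KRT5 and DSG3 had no region in their windows. Regions called in all 4 libraries were 4 of 5 at CDH1, 2 of 4 at TP63 and 1 of 1 at KRT15.

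**Figure D3:**
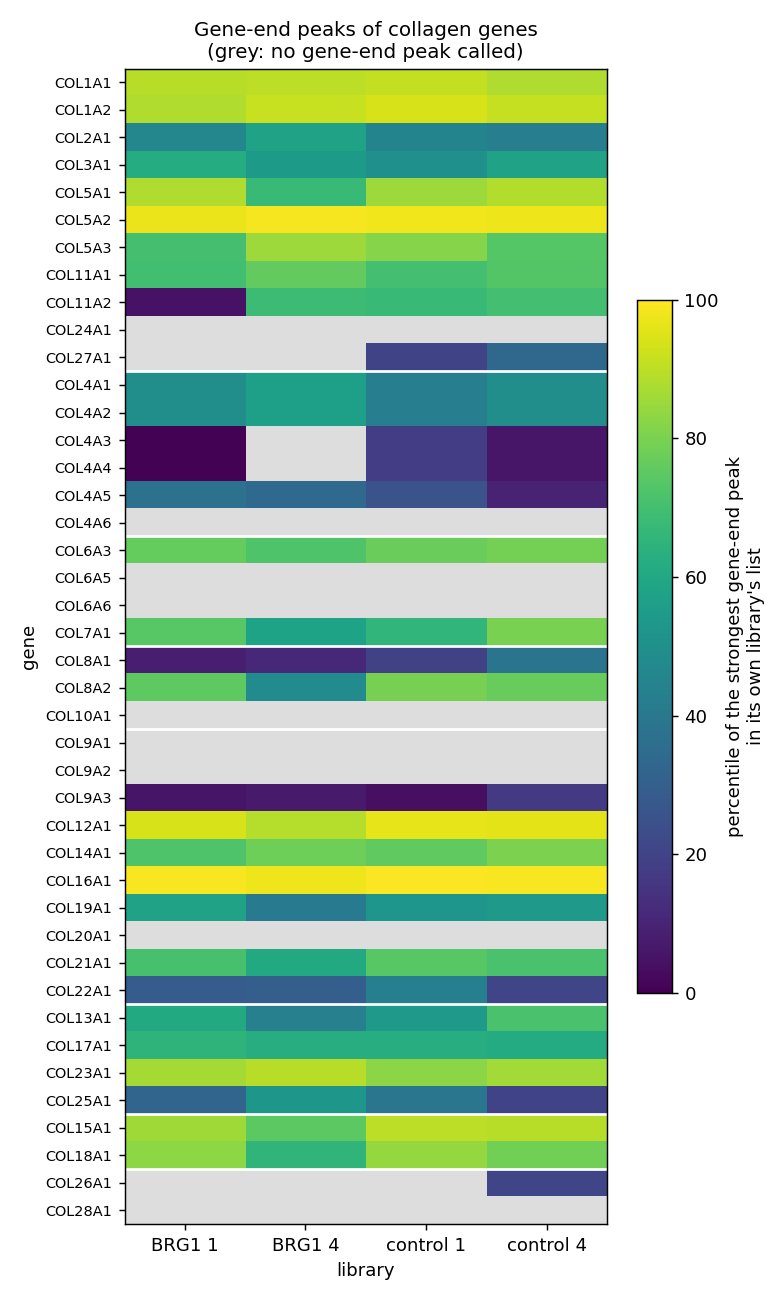
Percentile of the strongest gene-end peak of each collagen gene (rows, in the same class order) in each library (columns), with grey where no gene-end peak was called. COL5A2, COL16A1 and COL12A1 are high in all 4 columns, and 9 genes are grey throughout.

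Among collagens that coat fibrils, COL16A1 (chromosome 6) had percentiles of 99.1 and 97.3 in BRG1 against 99.4 and 99.1 in control libraries at its higher-coordinate end. With 15 of 22 regions in all 4 libraries, it reached 17.5 per 100 kb, below only COL8A2 (19.6), a short-chain collagen of vessel walls and cornea, among the 42 genes. COL12A1, a collagen of dense connective tissue, had gene-end percentiles of 93.9 and 89.0 in BRG1 against 96.2 and 95.7 in control libraries. COL14A1, of skin and tendon, had 72.5 and 77.8 in BRG1 against 75.6 and 80.1 in control libraries, and 16 of 24 regions in all 4 libraries. COL9A3 stood at the low end with 5.56 and 7.30 in BRG1 against 4.29 and 16.9 in control libraries. COL20A1 and COL9A1 had no peak within 3 kb of an end in any library, and COL28A1 had none within 1 kb.

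All 4 transmembrane and both multiplexin collagens had a gene-end peak in each library, as did 68.2% of all genes. COL23A1, with 19 of 30 regions in all 4 libraries, held its strongest region in the body, at percentiles of 97.5 and 97.7 in BRG1 against 97.5 and 97.5 in control libraries. COL15A1 and COL18A1, which link basement membranes to the matrix, had gene-end percentiles of 85.8 and 74.9 in BRG1 against 90.2 and 89.3 in control libraries, and 83.0 and 65.4 in BRG1 against 84.3 and 78.9 in control libraries. As ranks from lists of different length, these values are no measure of change between the groups. The strongest region of COL15A1 lay in the body, at 96.8 and 99.4 in BRG1 against 98.1 and 97.7 in control libraries. COL26A1 had a gene-end peak in control 4 alone, at percentile 20.8.

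The number of peaks in all collagen windows was lower in both BRG1 libraries, at 398 in BRG1 1 and 364 in BRG1 4, against 439 in control 1 and 441 in control 4. The BRG1 mean was 381 ± 24.0 and the control mean 440 ± 1.41 (n = 2 libraries each, SD), a ratio of 0.866 with p = 0.33 by a two-sided exact permutation test. With 2 libraries per group 0.33 is the smallest p this test allows, so no comparison here can pass 0.05. The share of the whole list was nearly equal, at 0.407 ± 0.00873% in BRG1 libraries against 0.412 ± 0.00548% in controls (n = 2 libraries each, SD, p = 0.67 by exact permutation). Length under peaks was 199.9 ± 18.4 kb in BRG1 libraries against 201.5 ± 3.96 kb in controls (n = 2 libraries each, SD, p = 1 by exact permutation). The lower number thus went with shorter lists, and in BRG1 4 also with wider collagen peaks, whose median width was 518.5 bp against 364 bp in BRG1 1 and 359 bp in both control libraries. The part of list length and width in the difference was not tested.

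**Figure D4:**
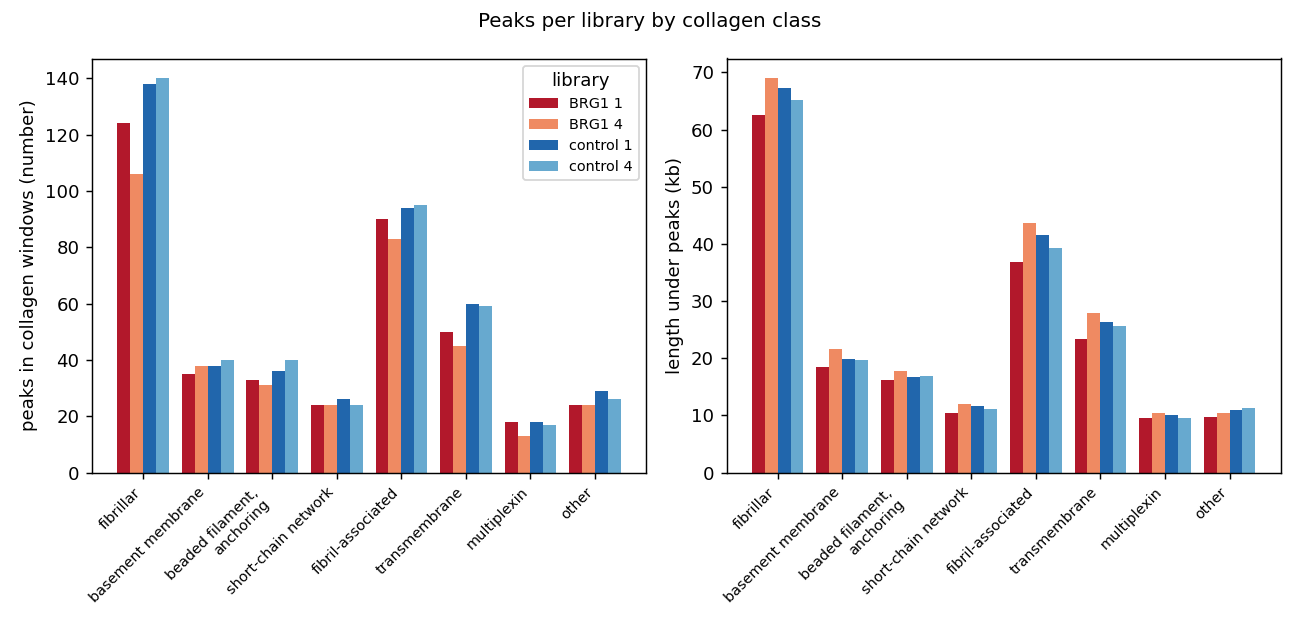
Number of peaks (left) and length under peaks in kb (right) in the windows of each collagen class, one bar per library, BRG1 libraries in red and control libraries in blue. Fibrillar collagens hold 124 and 106 peaks in BRG1 against 138 and 140 in control libraries, while BRG1 4 has the longest length under peaks in 7 of the 8 classes.

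Mean peak number was lower in BRG1 in all 8 classes, and the groups overlapped in some of them. The BRG1 lists were also shorter, and as a share of the whole list the BRG1 mean was not lower in every class. The ratio of shares, BRG1 over control, was 1.10 for short-chain network, 1.07 for basement membrane, 1.04 for fibril-associated and 1.01 for multiplexin collagens. It was 0.996 for the class of COL26A1 and COL28A1, 0.960 for beaded filament and anchoring, 0.942 for fibrillar and 0.909 for transmembrane collagens. Fibrillar collagens held 115 ± 12.7 peaks in BRG1 and 139 ± 1.41 in control libraries, a ratio of 0.827, and transmembrane collagens held 47.5 ± 3.54 in BRG1 and 59.5 ± 0.707 in controls, a ratio of 0.798 (n = 2 libraries each, SD, p = 0.33 for both by exact permutation). For basement membrane collagens the numbers were 36.5 ± 2.12 in BRG1 and 39 ± 1.41 in controls (n = 2 libraries each, SD, p = 0.67 by exact permutation), where BRG1 4 equalled control 1 at 38. Fibril-associated collagens had 86.5 ± 4.95 in BRG1 and 94.5 ± 0.707 in controls (n = 2 libraries each, SD, p = 0.33 by exact permutation). Length under peaks overlapped between groups in 7 classes, the exception being the class of COL26A1 and COL28A1, at 9.642 kb in BRG1 1 and 10.348 kb in BRG1 4, against 10.94 kb in control 1 and 11.244 kb in control 4.

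Gene by gene, the mean peak number was lower in BRG1 at 36 of 42 collagen genes, higher at 3 and equal at 3. Among all genes, which hold fewer regions (a median of 4, against 10), it was lower at 48.5% and higher at 11.5%. Both BRG1 numbers lay below both control numbers at 12 of 42 (28.6%), against 15% of all genes. The 12 were COL1A1, COL5A2, COL6A6, COL7A1, COL11A1, COL13A1, COL21A1, COL23A1, COL24A1, COL25A1, COL26A1 and COL27A1. Length under peaks was without overlap and higher in BRG1 at 5 of 42 genes (11.9%, against 14.1% of all genes), namely COL3A1, COL4A2, COL9A1, COL9A2 and COL19A1. It was without overlap and lower in BRG1 at 5 of 42 (11.9%, against 13.5%), namely COL5A1, COL9A3, COL22A1, COL24A1 and COL26A1. The median ratio of length under peaks, BRG1 over control, was 0.990 for collagen genes and 1.02 for all genes with a control peak.

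Regions called in 1 group alone were few and weak. In collagen windows 3 regions were BRG1-only (0.602%, against 0.741% of all regions) and 18 were control-only (3.61%, against 4.41%). Median mean percentiles were 12.9 for the BRG1-only and 18.5 for the control-only regions, against 55.3 for those called in all 4 libraries. Regions called in other combinations of libraries also ranked low, at 14.1, so a low rank was not particular to group-only regions. The 3 BRG1-only regions touched 4 windows, since 1 lay inside COL4A2 and within 10 kb of COL4A1. It ran from 77005011 to 77005411 on chromosome 11, at percentiles of 0.245 in BRG1 1 and 12.5 in BRG1 4. The third lay at the lower-coordinate end of COL19A1, from 50044821 to 50045162 on chromosome 1, at percentiles of 21.0 and 12.4, and 759 bp from a region called in all 4 libraries. COL19A1 held 6 and 6 peaks in BRG1 against 5 and 4 in control libraries. A BRG1-only region was present in the window of 4 of 42 collagen genes (9.52%), against 3.54% of all genes, whose windows were shorter.

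Control-only regions lay in the windows of 16 of 42 collagen genes (38.1%), against 15.9% of all genes with their shorter windows. Of the 18 regions 12 lay in gene bodies, 5 in flanks and 1 at a gene end, that of COL11A2, which was also within 1 kb of an end of RXRB. COL13A1 and COL23A1 held 2 each. The others were at COL1A1, COL4A1, COL5A2, COL6A6, COL7A1, COL11A1, COL12A1, COL16A1, COL21A1, COL24A1, COL25A1, COL26A1 and COL27A1. The region in the body of COL4A1, from 76976863 to 76977225 on chromosome 11, had percentiles of 37.3 in control 1 and 39.5 in control 4 and lay 19130 bp from the closest region shared by the 4 libraries. That in the flank of COL1A1, from 26398465 to 26398752 on chromosome 12, had percentiles of 19.6 and 30.0 and lay 1167 bp from such a region. At COL5A2 the region from 93845332 to 93845591 had percentiles of 25.6 and 22.5. With lists cut to equal length, 2 of the 3 BRG1-only and 7 of the 18 control-only regions kept their call, those at COL3A1 and COL19A1 and those at COL1A1, COL4A1, COL5A2, COL12A1, COL16A1, COL21A1 and COL27A1. There were then 7 BRG1-only and 8 control-only regions in all.

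The remaining 171 regions were called in other combinations of libraries. BRG1 4 alone lacked a call at 36 of 498 collagen regions (7.23%, against 6.39% of all regions), BRG1 1 at 9 (1.81%, against 2.73%), control 1 at 6 (1.20%, against 1.03%) and control 4 at 2 (0.402%, against 1.21%). Regions called in 1 library alone numbered 10 in BRG1 1 (2.01%, against 2.41%), 20 in BRG1 4 (4.02%, against 3.49%), 26 in control 1 (5.22%, against 5.58%) and 30 in control 4 (6.02%, against 4.97%). Without BRG1 4, the count of regions called in every library was 346, and there were 13 regions in BRG1 1 with no control call and 28 in both controls without BRG1 1.

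Of 32 genes of collagen synthesis and crosslinking, 29 had gene-end peaks in each of the 4 libraries, against 29 of 42 collagen genes and 68.2% of all genes. The exceptions were COLGALT1, a collagen galactosyltransferase, and P4HA3, a prolyl hydroxylase subunit, with none, and PLOD1, a lysyl hydroxylase, with one in 3 libraries. BRG1-only regions lay in the windows of P4HA2, P4HA3 and ADAMTS14, which cleaves procollagen, and control-only regions in those of P4HB, PLOD2, PCOLCE2 and LOXL3. These are 3 and 4 of 32 genes, where 3.54% of all genes held a BRG1-only and 15.9% a control-only region. P4HA2, P4HA3 and ADAMTS14 had longer windows than the median of all genes, 40.7 kb. Gene-end peaks were called in each of the 4 libraries at all 8 collagen receptor genes. Control-only regions lay in the windows of 3 of these 8 genes, against 15.9% of all genes. The 3 were ITGA1, ITGA10 and ITGA11, which encode alpha subunits of collagen-binding integrins. The windows of ITGA1 and ITGA11 were longer than the median window of all genes, 40.7 kb. ITGA11 held 14 and 15 peaks in BRG1 against 15 and 17 in control libraries, and ITGA1 held 11 and 13 in BRG1 against 14 and 15 in control libraries. PLOD2 held 11 and 9 peaks in BRG1 against 11 and 12 in control libraries, and P4HA3 held 11 and 11 in BRG1 against 10 and 9 in control libraries.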

How the data were processed

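ATAC-seq peak lists of 4 libraries were used, 1 narrowPeak list per library, as the authors deposited them. FastQC, BWA, Bowtie, SAMtools and MACS2 and the build Sscrofa11.1 are named without version or role, per the submitters' processing notes. The Tn5 shift, the treatment of duplicate and mitochondrial reads and the caller's settings are not given in the sources, and each can change peak number and width. The deposited fold is a ratio of summit pileup to local background, and the authors' caller set the −log10 p-value and, after adjustment, the −log10 q-value library by library. As a check showed, the score the authors deposited equals 10 times the −log10 q without decimals. Such values were used inside 1 list at a time.

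Fold and p together fix a pileup and a background for each summit, and a low quantile of that background gave the relative depth. Python 3.11.15, pandas 2.3.3, NumPy 2.4.6 and SciPy 1.17.1 were used, and overlap and calls were tested on simulated data. A region's percentile in a library is that of its strongest peak there. Gene positions came from a RefSeq table of the same build, without strand or exons, so which end is the start, and exonic or intronic position, was not assigned. No sequence was used. Libraries were compared by exact permutation tests of group means. Regions and genes are not replicates, so their counts stand beside those of all regions or genes, without a test.

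Named genes were the main collagens of fibroblasts, basement membrane, cartilage and the epidermal junction, those with a group-only region or no gene-end peak, and the 5 with most regions and with highest and lowest density. Other genes named, such as COL15A1 and COL9A3, were picked with their values in view. The members, lists and rules were chosen with earlier results of these data known. Alternatives were a −log10 q of at least 5, lists of equal length, overlap of 50%, windows without flanks or with 25 kb, gene ends of 3 kb and leaving out each library. A planned search for promoter motifs was not run.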

Additional observations from a re-analysis of the deposited data

How the results depend on the processing

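Peak number in collagen windows was lower in BRG1 under every alternative run, at a ratio of 0.827 (without BRG1 1) to 0.980 (equal list lengths). The ratio of length under peaks, 0.992 in the report, turned to 1.07 when lists were cut to equal length and lay between 0.928 and 1.06 when each library was left out. It was above 1 without BRG1 1 (1.06) and without control 1 (1.01). The difference in share of the list, −0.00551 percentage points, lay between −0.0117 and 0.000662, above 0 only without BRG1 4. Equal list lengths gave 7 BRG1-only regions in 7 genes and 8 control-only regions in 8 genes. A gene-end window of 3 kb left 2 genes without a peak. Leaving out each library gave 5 to 24 BRG1-only and 28 to 55 control-only regions, in 6 to 16 and 20 to 31 genes. With a library left out, fewer libraries had to have a call or to lack one. Regions called in all libraries used numbered 258 to 367 across filters, windows, overlap and left-out libraries, and 295 without regions at ends of other genes, an alternative chosen after seeing the data. For the turned values the cause was not tested.

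With the replicate number as a block the ratios were 0.866 for peak number and 0.993 for length, and the difference in share was −0.00551 percentage points (p = 0.5, 1 and 1 by exact sign flips, where 0.5 is the lowest p). Deviations of same-numbered libraries in peak number correlated at 0.00413 over 19550 genes and at −0.304 over the 42 collagen genes, so the numbers were not taken to pair the libraries. The crossed pairing, BRG1 1 with control 4 and BRG1 4 with control 1, was added after seeing these correlations and gave 0.866, 0.991 and −0.00551 (p = 0.5, 1 and 0.5 by exact sign flips), so it ended or turned none of these 3 results. A missing peak means only that none was called at that library's depth.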
